A study of Mus musculus with 4 samples.

Results

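The laminins, nidogens, perlecan and integrins are the genes that build and read the basement membrane, the thin sheet of matrix under epithelia and around muscle, nerve and vessel cells. Members were chosen by symbol alone, with a pattern that takes all laminin chains, both nidogens, the perlecan gene Hspg2 and all integrin alpha and beta subunits. This gave 40 of the 51098 genes in the table: 11 laminin chains, 3 linker genes, 18 integrin alpha subunits and 8 integrin beta subunits. Expression was measured by sequencing total RNA of mouse embryonic stomachs at E15.5 (embryonic day). One group, called Fgf9_null here, is homozygous for the Fgf9LacZ allele, and its treatment label reads Fgf9KO. The other, called Fgf9_het, has the genotype label Fgf9LacZ/+ and is labelled as control, though its titles read WT. By the genotype labels, every stomach of the study carries the LacZ allele. Each group has 2 samples, numbered 2 and 3 in the titles. The sources used here give neither the strain nor the number of embryos per sample.

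A laminin molecule is a cross-shaped trimer of an alpha, a beta and a gamma chain, and the alpha chain carries the main sites for cell receptors. Laminins assemble into a sheet at the cell surface, nidogens and perlecan link that sheet to the type IV collagen network, and integrins, each a pair of an alpha and a beta subunit, attach cells to it. Epithelia that bear mechanical load, such as the squamous lining of the mouse forestomach, anchor themselves through hemidesmosomes, in which the products of Itga6 and Itgb4 bind a laminin whose alpha and beta chains come from Lama3 and Lamb3.

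The 4 named columns hold 2 distinct libraries, and nothing says whether these came from separate animals. Total estimated counts ran from 19269851 to 22713416 per column, and a floor of 3 counts corresponded to 0.132 to 0.156 CPM (each count scaled to a column total of 1e6). Columns of the same number under the 2 genotype labels differed in no member by more than 0.743%, and chi-square divided by its degrees of freedom, over 39 members with a summed count of 10 or more, was 0.000131 for number 2 and 0.000432 for number 3. Columns of different number gave 8.44 to 8.45. The difference within a number was smaller than sampling noise, so each number was counted as 1 sample, named library 2 and library 3. The tissue label was checked against markers: all 8 stomach epithelium markers reached 1 CPM in both libraries and summed to 6671 and 6300 CPM. Most of that sum was 1 gene, Cym, at 4882 and 4502 CPM. The 11 genes of neighbouring organs summed to 55.4 and 74.2 CPM. Of these, the liver genes Alb (4.38 and 11.8 CPM) and Afp (3.61 and 12.2 CPM) were over 1.5-fold higher in library 3. Which genotype either library had is not resolved by these columns.

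The labelled comparison asks whether loss of Fgf9, a secreted fibroblast growth factor, changes expression in the developing stomach. Under the 2 labels, the members had nearly the same values: Lama5 had 613 and 658 CPM in the Fgf9_null columns and 622 and 667 CPM in the Fgf9_het columns, and Itgb1 had 415 and 409 against 420.5 and 415 CPM. The columns of one number lie together whatever the label, and the ranges of the labels overlap. edgeR's quasi-likelihood test called 0 of 39 members tested, against 0.0% of 19987 genes in either direction, and 0 members (4 of all genes) had an unadjusted p under 0.05. The edgeR log2 fold with the largest size was 0.00523, for Itgal. DESeq2 and limma-voom also called 0 members, and 3 and 0 of all genes. Since each library appears under both labels, this count holds no information on Fgf9, and levels are given below as mean ± SD over n = 2 libraries.

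**Figure D1:**
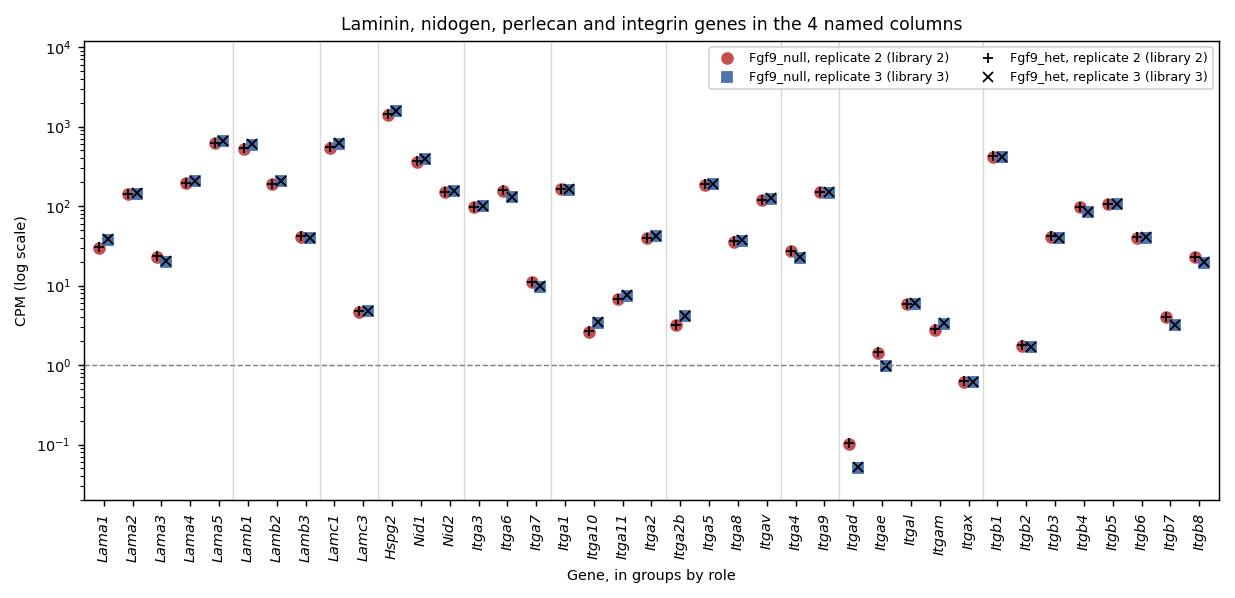
CPM of 39 of the 40 genes (log scale) in the 4 named columns, grouped by role; circles and plus signs are the columns numbered 2, squares and crosses those numbered 3, and the dashed line marks 1 CPM. The symbols of the 2 labels lie on top of each other for every gene drawn, and only Itgae, Itgax and Itgad have a symbol below the line.

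Nearly the whole family was expressed. Of 40 members, 37 had 1 CPM or more in each library, against 32.7% of all genes in the table. Together the members took 0.603% of the counts in library 2 and 0.638% in library 3, and Hspg2 alone held 23.5% and 24.6% of that. CPM grows with transcript length, so genes are compared below on CPM per kb of the longest protein-coding transcript in the GENCODE annotation of GRCm38. On that scale the members ran from 0.0188 (Itgad) to 109 CPM per kb (Itgb1).

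The laminin chains were led by the set that makes the trimer of Lama5, Lamb1 and Lamc1 products, the main laminin of many embryonic and adult epithelial basement membranes. Lama5 (ENSMUSG00000015647, chromosome 2, 180176373 to 180225859, minus strand) had 618 and 662 CPM in libraries 2 and 3. Per kb it stood at 56.2 ± 2.76 CPM (SD, n = 2 libraries), which was 50.8% and 51.3% of all alpha chain signal. Lamb1 (ENSMUSG00000002900, chromosome 12, 31265234 to 31329644, plus strand), the beta chain of most embryonic laminins, had 531 and 595 CPM, or 97.3 ± 7.79 CPM per kb. Lamc1 (ENSMUSG00000026478, chromosome 1, 153218922 to 153332786, minus strand), the gamma chain of nearly all laminins outside the epidermal type, had 547 and 612 CPM, or 76.1 ± 6.07 CPM per kb. It held 91.8% and 92.8% of the gamma chain signal. For these 3 chains the value of library 3 was the higher one.

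The other alpha chains followed in a wide spacing. Lama4, the alpha chain of vessels and other mesenchymal cells, had 196 and 208 CPM, or 33.4 ± 1.41 CPM per kb. Lama2, the alpha chain around muscle fibres and Schwann cells, had 141 and 144 CPM, or 14.9 ± 0.226 CPM per kb. Lama1, the alpha chain of the earliest embryonic basement membranes, was far lower at 30.2 and 38.0 CPM, or 3.58 ± 0.577 CPM per kb. Lama3, the alpha chain of the hemidesmosome laminin, was the lowest at 23.3 and 19.9 CPM, or 2.05 ± 0.224 CPM per kb. The order Lama5, Lama4, Lama2, Lama1, Lama3 was the same in both libraries, and neighbours in it were separated by more than their SDs.

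Lamb2, the beta chain of the neuromuscular junction and of vessels, stood at 35.3 ± 2.01 CPM per kb (191 and 207 CPM). Lamb3, the usual beta partner of Lama3, stood at 8.34 ± 0.212 CPM per kb, with 41.3 and 39.8 CPM. It lay above Lama3 per kb in each library, so these chains of the hemidesmosome laminin were not at equal transcript level on this scale. Lamc3, a gamma chain of few tissues, was low at 4.74 and 4.79 CPM or 0.811 ± 0.00527 CPM per kb. Summed over chains, the alpha, beta and gamma genes reached 110 ± 4.75, 141 ± 9.59 and 82.4 ± 5.97 CPM per kb. The ratio of beta to alpha was 1.26 in library 2 and 1.30 in library 3, and that of gamma to alpha was 0.733 and 0.764. Both depend on the length used: beta to alpha was 2.26 with the mean length of protein-coding transcripts, and gamma to alpha was 1.13 with that length and 1.12 with the longest coding sequence.

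Of the linker genes, Hspg2 had the highest level. Hspg2 (ENSMUSG00000028763, chromosome 4, 137468769 to 137570630, plus strand) encodes perlecan, a large heparan sulfate proteoglycan. It had 1415 and 1570.2 CPM, or 105 ± 7.72 CPM per kb. Nid1, which bridges laminin and type IV collagen, had 365 and 392 CPM, or 62.1 ± 3.14 CPM per kb. Its paralogue Nid2 had 151 and 155 CPM, or 31.4 ± 0.655 CPM per kb. All 3 linker genes were higher in library 3.

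**Figure D2:**
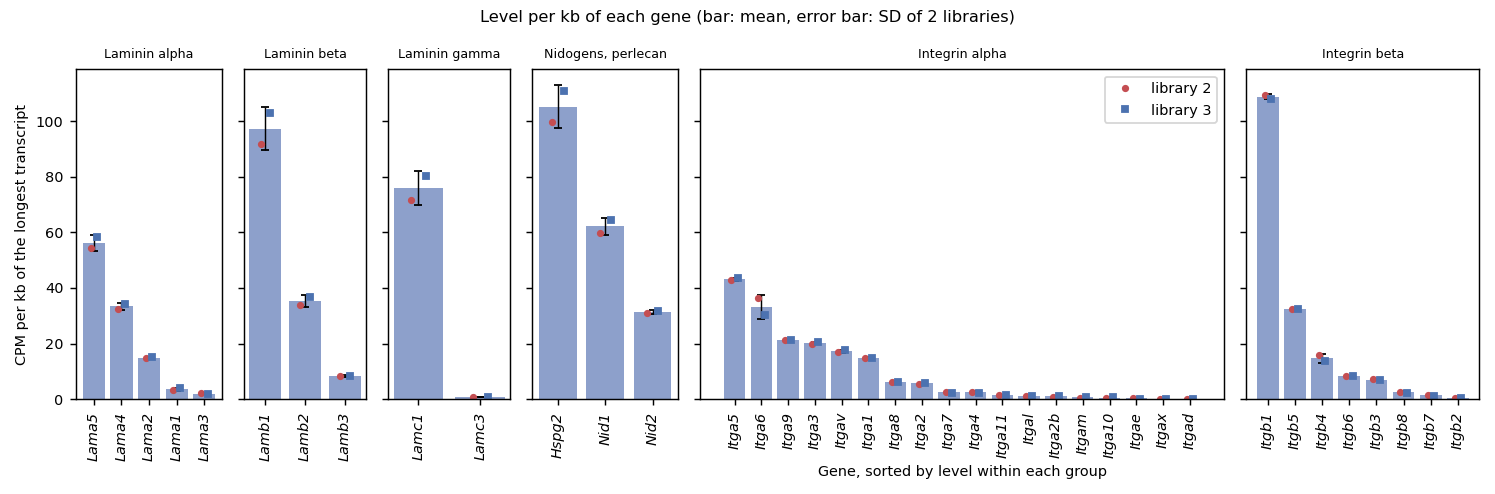
Level of 39 genes in CPM per kb of its longest transcript, sorted within 6 groups; bars are means and error bars SDs of 2 libraries, with circles for library 2 and squares for library 3. One gene leads each laminin, linker and beta subunit group (Lama5, Lamb1, Lamc1, Hspg2, Itgb1), while the integrin alpha subunits are spread over several genes.

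The common partner of most integrins, Itgb1, had the highest level per kb of the beta subunits. Itgb1 (ENSMUSG00000025809, chromosome 8, 128685654 to 128733200, plus strand) had 418 and 412 CPM, or 109 ± 1.00 CPM per kb, and made up 61.6% and 62.3% of the beta subunit signal. Itgb5, a partner of Itgav in receptors for vitronectin, stood at 32.3 ± 0.0573 CPM per kb (both libraries at 106 CPM). Itgb4, the hemidesmosome subunit with its long intracellular tail, stood at 14.7 ± 1.5 CPM per kb, with CPM values of 97.7 and 84.5. Itgb6, an epithelial subunit that activates latent TGF-beta with Itgav, stood at 8.35 ± 0.0190 CPM per kb. Itgb3, the beta subunit of platelets, osteoclasts and some vessels, stood at 7.02 ± 0.231, and Itgb8, another activator of TGF-beta, at 2.52 ± 0.285 CPM per kb. The leukocyte subunits Itgb7 and Itgb2 stood at 1.34 ± 0.219 and 0.578 ± 0.0163 CPM per kb.

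Among integrins that bind laminin, Itga6 and Itga3 were well above Itga7. Itga6 (ENSMUSG00000027111, chromosome 2, 71745616 to 71858416, plus strand) had 157 and 130.4 CPM, or 33.3 ± 4.33 CPM per kb, the largest SD relative to its mean among members above 100 CPM. Itga3, the other epithelial laminin receptor, had 97.2 and 99.7 CPM, or 20.2 ± 0.373 CPM per kb. With merged exon length the order turned, at 15.9 CPM per kb for Itga6 and 17.2 for Itga3. Itga7, the laminin receptor of muscle, was much lower at 11.1 and 9.71 CPM, or 2.59 ± 0.252 CPM per kb. The skeletal muscle markers summed to 38.2 and 23.2 CPM, with 4 of 8 at 1 CPM or more, and their part in the Itga7 value was not tested.

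Receptors for fibronectin and related ligands with an RGD motif were led by Itga5. Itga5, the main fibronectin receptor subunit, stood at 43.1 ± 0.471 CPM per kb (187 and 190.2 CPM), the highest alpha subunit except with the mean transcript length, where Itga9 was at 46.6. Itgav, which pairs with several beta subunits, stood at 17.3 ± 0.524 CPM per kb, and Itga8, a subunit for nephronectin in mesenchyme, at 6.26 ± 0.0968 CPM per kb. Summed, the 4 RGD-binding subunits had 67.7 ± 1.29 CPM per kb and the 3 laminin-binding subunits 56.2 ± 4.21 CPM per kb. Itga9, a receptor for tenascin and other ligands in smooth muscle and lymphatic vessels, stood at 21.3 ± 0.160 CPM per kb. Itga4, found on neural crest and blood cells, had 27.1 and 22.5 CPM, or 2.54 ± 0.331 CPM per kb.

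Of the collagen receptors, Itga1 was the highest. Itga1, typical of smooth muscle and other mesenchyme, had 164 and 162 CPM, or 14.9 ± 0.165 CPM per kb. Itga2, an epithelial and platelet collagen receptor, had 39.8 and 41.8 CPM, or 5.74 ± 0.199 CPM per kb. Itga11, a fibroblast subunit, and Itga10, a cartilage subunit, were low, at 1.43 ± 0.0924 and 0.601 ± 0.112 CPM per kb. Summed over all subunits, integrin alpha genes had 173 ± 3.17 and integrin beta genes 176 ± 3.18 CPM per kb, a ratio of 0.983 in both libraries. That near equality depends on the length used.

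Integrins of blood cells were low. Itgal had 5.88 and 5.96 CPM, Itgam 2.78 and 3.32 CPM, and Itgae, which holds lymphocytes in epithelia, 1.44 and 0.975 CPM. Itgax had 12 and 14 counts, or 0.618 and 0.613 CPM, with exact Poisson 95% intervals of 0.320 to 1.08 and 0.339 to 1.04 CPM. Itgad had 2 and 1 counts, below the floor of 3, and was not detectable at this depth. The 8 leukocyte markers, led by the macrophage receptor genes Csf1r and Mrc1, all reached 1 CPM and summed to 121 and 123 CPM. Itga2b, the platelet and megakaryocyte subunit that pairs with Itgb3, had 3.20 and 4.17 CPM. Of 7 platelet markers 2 reached 1 CPM in both libraries (Gp1ba and Pf4), and the sum was 8.53 and 9.34 CPM. Gp9, named after its values were seen, was at 0 counts in library 2 and 10 counts (0.443 CPM) in library 3. In bulk tissue, fewer cells of a type and less RNA per cell cannot be told apart.

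Promoter sequence was compared for 25 members with an entry in the RefSeq table (build GRCm38.p6), which gave 28 windows of 150 bases before a start site. CG dinucleotides, the sites of DNA methylation in mammals, are dense at many promoters active in most tissues. Here they are shown for an abundant laminin and the abundant shared integrin beta subunit, beside 2 members near the low end, with each CG in capitals, 5′ to 3′ on the gene's strand.
Lama5, chr2:180225860-180226009, minus strand: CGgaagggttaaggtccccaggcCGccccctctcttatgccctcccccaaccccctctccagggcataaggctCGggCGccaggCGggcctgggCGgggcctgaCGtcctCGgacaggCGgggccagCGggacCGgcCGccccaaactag
Itgb1, chr8:128685504-128685653, plus strand: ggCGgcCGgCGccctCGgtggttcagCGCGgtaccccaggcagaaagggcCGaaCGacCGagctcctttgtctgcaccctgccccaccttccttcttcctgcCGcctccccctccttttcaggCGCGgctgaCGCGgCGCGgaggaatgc
Itgam, chr7:128062490-128062639, plus strand: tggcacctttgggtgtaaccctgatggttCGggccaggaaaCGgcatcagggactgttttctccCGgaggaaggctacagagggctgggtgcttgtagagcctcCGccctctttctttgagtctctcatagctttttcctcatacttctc
Itga10, chr3:96645434-96645583, plus strand: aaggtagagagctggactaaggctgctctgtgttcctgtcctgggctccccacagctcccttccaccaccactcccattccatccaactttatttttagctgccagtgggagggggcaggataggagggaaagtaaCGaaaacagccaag

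Lama5 and Itgb1 hold 12 and 16 CG dinucleotides, whereas Itgam and Itga10 hold 4 and 1. These 4 were chosen after their values were seen. The 12 windows of members at 100 CPM or more had a median of 10 CG, the 6 windows of members under 10 CPM had a median of 2, and all 32843 RefSeq windows of this length had a median of 4. Single windows went against that order: the Lama2 window had 0 CG at 143 ± 2.17 CPM, and the Itga11 window had 10 CG at 7.11 ± 0.459 CPM. However, the Lama2 window (chromosome 10, 27616943 to 27617092) lies inside the annotated gene (26980036 to 27619758, minus strand). Some other windows do too, among them that of Itga9 (window from 118711542, gene from 118606690, plus strand). Another is the Itga2b window, with 1 CG (window to 102470033, gene to 102470122, minus strand). The medians at 100 CPM or more and under 10 CPM thus both include windows inside a gene. Such a window precedes a start site within the gene and need not be its main promoter. The motif GGGCGG, searched on both strands, was in 9 of 28 member windows (32.1%) and in 28.6% of all windows. TATAAA, also searched on both strands, was in 0 of the 28 and in 7.58% of all windows.

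Differences between the 2 libraries were small, and with 1 library on each side they have no test. Among the 37 members that had 1 CPM or more in each library, 0 differed by over 1.5-fold, against 1.36% of all 16712 such genes higher in library 3 and 2.52% higher in library 2. The ratio of library 3 to library 2 ran from 0.794 (Itgb7) to 1.30 (Itga10), both genes with few counts. The median log2 ratio was 0.02 over the members and -0.02 over all genes.

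The 95% counting interval of the ratio lay above 1 for 8 of the 37 members, against 10.3% of all genes. These were Lama1, Lama4, Lama5, Lamb1, Lamb2, Lamc1, Hspg2 and Nid1. It lay below 1 for 5 of the 37, a share near the 12.7% of all genes: Itga6, Itgb4, Lama3, Itga4 and Itgb8. The interval covers counting error only and is narrow for well counted genes. Of the 16 members at 100 CPM or more, 7 had it above 1 and 1 below, where 29.2% and 17.6% of all 1791 genes at that level did.

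Lamb1 and Lamc1 had almost the same ratio, at 1.12 (counting interval 1.09 to 1.15 for each), and Hspg2 had 1.11 (1.09 to 1.13). Lama5, their trimer partner, had 1.07 (1.05 to 1.10). Lama1 had the highest ratio of the 8, at 1.26 (1.13 to 1.40). Endothelium markers were also higher in library 3, summing to 321 and 364 CPM, and so were red blood cell markers, at 1082 and 1479 CPM. The part of any of these cell types in the laminin values was not tested.

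Of the members at 100 CPM or more, Itga6 was the 1 with its interval below 1, with a ratio of 0.832 (0.790 to 0.875), and its hemidesmosome partner Itgb4 had 0.865 (0.811 to 0.922). Lama3 had 0.856 (0.75 to 0.977), whereas the ratio of Lamb3, 0.965 (0.876 to 1.06), had an interval that includes 1. Itga3, which also binds laminin in epithelium, had 1.03 (0.965 to 1.09). Itga4, at 0.831 (0.735 to 0.942), and Itgb8, at 0.852 (0.745 to 0.974), had ratios as low as these hemidesmosome genes. The squamous and basal epithelium markers summed to 672 and 381 CPM in libraries 2 and 3, with 6 of 8 over 1.5-fold higher in library 2, among them Krt5, Trp63 and Krt15. Sprr1a was over 1.5-fold higher in library 3, and none of the 8 was at 0. The stomach epithelium markers summed to 6671 and 6300 CPM. The part of these markers in the Itga6, Itgb4 and Lama3 values was not tested.

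**Figure D3:**
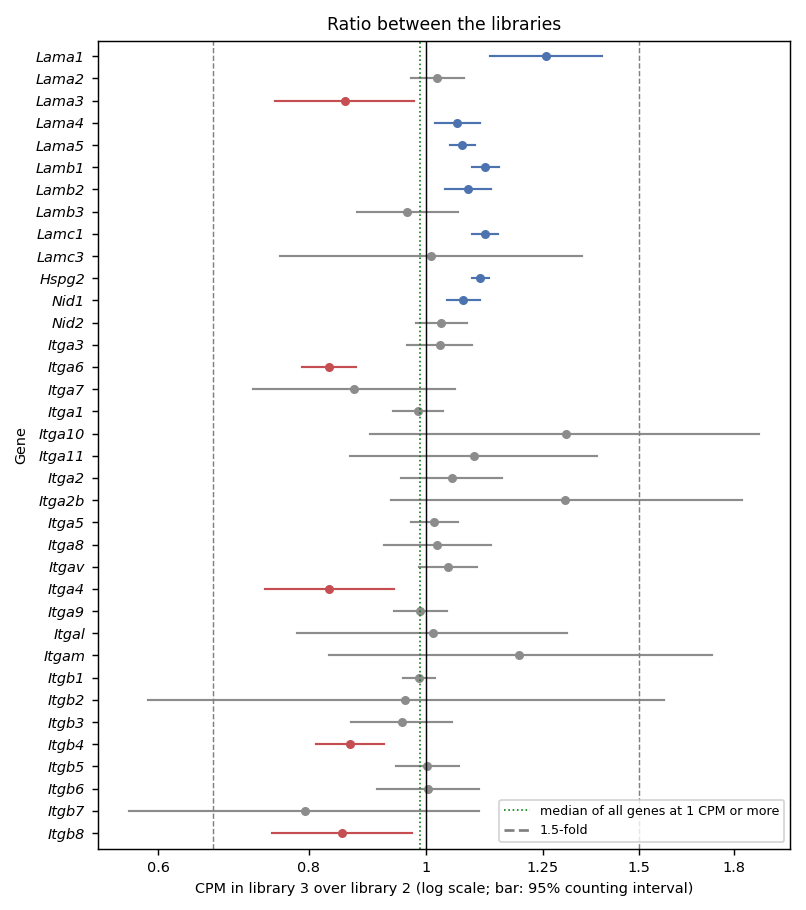
Ratio of library 3 to library 2 for 36 of the 37 genes with 1 CPM or more in each library (log scale), with 95% counting intervals; blue intervals lie above 1, red below 1 and grey include 1, the dotted line is the median of all genes and dashed lines mark 1.5-fold. The 8 blue genes are laminin chains, Hspg2 and Nid1, and no point passes a dashed line.

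**Figure D4:**
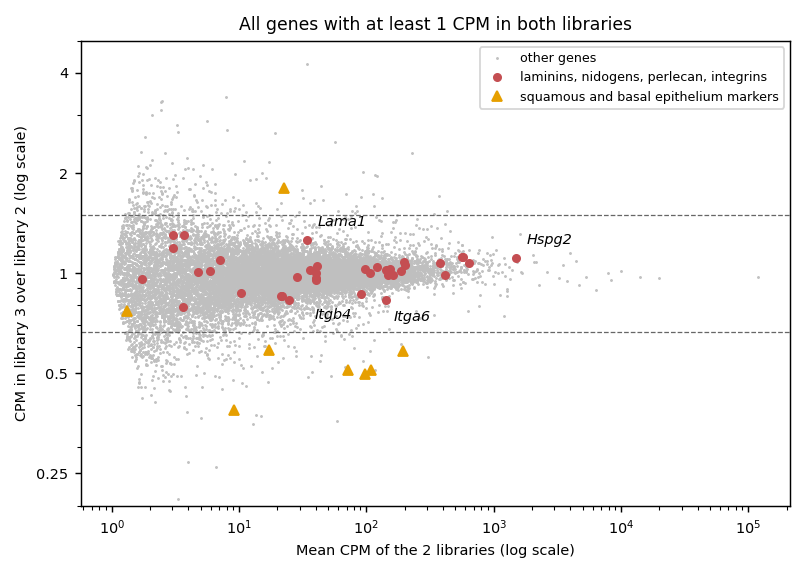
Ratio of library 3 to library 2 against mean CPM (both log scales) for 16712 genes with 1 CPM or more in each library; red points are the laminins, nidogens, perlecan and integrins, triangles the squamous and basal epithelium markers, dashed lines 1.5-fold. The red points stay between the dashed lines while 7 of 8 triangles lie outside them; 5 genes fall outside the plotted range.

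The rest of the basement membrane and adhesion machinery was expressed as well. All 21 other basement membrane genes reached 1 CPM in both libraries, and 0 passed 1.5-fold. The type IV collagen genes Col4a1 and Col4a2, whose network laminin is tied to, had 1393 and 1422 CPM and 771 and 821 CPM. Per kb they stood at 213 and 123 CPM. Agrn, the heparan sulfate proteoglycan agrin, chosen after its values were seen, had 614 and 632 CPM, or 85.8 CPM per kb.

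Of 11 other laminin receptor and hemidesmosome genes, 10 reached 1 CPM and 1 passed 1.5-fold. That gene was Col17a1, a transmembrane collagen of hemidesmosomes, with 46.7 and 26.3 CPM, a ratio of 0.562 (0.506 to 0.624). The plakin genes Plec and Dst, whose products link hemidesmosomes to keratin, had 889 and 911 CPM and 511 and 445 CPM. Dag1, which encodes the laminin receptor dystroglycan and was chosen after its values were seen, had 259 and 248 CPM.

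Among integrin ligands outside the basement membrane list, Fn1 was the highest, with 1398 and 1832 CPM and a ratio of 1.31 (1.29 to 1.33). It encodes fibronectin, the ligand of the Itga5 product, whose own ratio was 1.02 (0.972 to 1.06). Cdh1, the epithelial cadherin to which the Itgae product binds, had 391 and 387 CPM. All 25 genes of integrin activation and adhesion complexes reached 1 CPM in both libraries, with 0 past 1.5-fold. Flna, an actin crosslinker that binds integrin tails, had 3383 and 3585 CPM, and Tln1, the talin that switches integrins on, had 538 and 562 CPM.

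Counts of some members share sequence with other genes. Exon bases of 14 members are also annotated to another gene on either strand. The share was 68.7% for Itgam, with the protein-coding model Gm49368 (listed at 0 counts), and 33.5% for Itga10, with Gm42957 (mean of 27.0 counts). The values of these 2 members are therefore uncertain. For the other 12 members the shared part was at most 8.6% with any 1 gene, which includes the 8.4% that Nid2 shares with Rtraf on the opposite strand.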

How the data were processed

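Ribosomal RNA was removed with RNase H and cDNA was made with random hexamers, per the labels' protocols. FastQC 0.10, edgeR, Salmon 1.8.0, Trimmomatic 0.33 and builds GRCm38 and mm10 are listed without roles in the submitters' processing notes. The sources used here give neither annotation nor strand setting. The authors deposited estimated counts per gene, not scaled to depth. The table has 2 further columns with no name, which no label assigns to a sample; they were not used. Groups came from the genotype labels. Columns were matched by title. Replicate numbers come from the titles, and deviations of same-numbered columns from group means correlated at 0.999 across 19412 genes, so they pair columns of 1 library. With 2 columns per group, this value is the same for either number by construction.

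CPM was computed on column totals and averaged over same-numbered columns. Positions and transcript lengths are from GENCODE M21 (GRCm38). Rounded counts were tested with edgeR 4.0.16 (TMM, filterByExpr, quasi-likelihood test, Benjamini-Hochberg, adjusted p under 0.05) in R 4.3.3. DESeq2 1.42.0 and limma 3.58.1 were alternatives, and the fits were tested on simulated data. The simulation drew 4 separate libraries, which the named columns are not, so it does not show how the fits act on repeated libraries. Nothing says which samples were separate animals, so p-values reflect column spread alone, which may be technical. Ratio intervals are exact (Clopper-Pearson, conditional on the sum) and, like the Poisson intervals, cover counting error only. Of the members, 1 is not reported here by name, though sums and counts include it, and all others are named; of each other list, the 2 highest genes and those past 1.5-fold could be named. The members and lists were chosen with earlier results of these data known.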

Additional observations from a re-analysis of the deposited data

How the results depend on the processing

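The count of 0 members called between the labels held under RLE factors, both other filters, DESeq2, limma-voom, the replicate block and with any 1 column left out. Over all genes, the count of 0 became 3 with DESeq2 and 6 with the replicate block, in which a library is set against itself, and 1 to 2 without 1 column, where the single column left in a group takes its spread from the other. The largest member log2 fold was then 0.256 to 0.287 (Itgae), since the remaining columns hold the libraries in unequal numbers; it was 0.0047 to 0.0055 otherwise. At the lower fold threshold tried, 4 members passed between the libraries (Itga10, Itga2b, Lama1, Itgb7), and at 2-fold 0 did. The share of all genes passing was not computed at either threshold, so these counts have no background to be set against. Of the 4, only Lama1 had a counting interval that excludes 1 (1.13 to 1.40). The intervals of Itga10 (0.899 to 1.89), Itga2b (0.936 to 1.83) and Itgb7 (0.568 to 1.11) include 1. With TMM library sizes the median log2 ratio was 0.04, members higher in library 3 rose from 23 to 25, and Itgav joined those with an interval above 1. Leaving 5 structured and ribosomal RNAs out of the totals raised levels by 1.2 times and brought 38 members to 1 CPM.

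Levels per kb depend on the length chosen. With the mean length of protein-coding transcripts the sums were 121, 273 and 137 CPM per kb for laminin alpha, beta and gamma chains, and 241 and 262 for integrin alpha and beta subunits. With merged exons they were 87.2, 95.5, 74.4, 129 and 161, in the same order. With the longest coding sequence, chosen after the files were seen in place of the RefSeq protein (not run), they were 115, 151, 129, 309 and 279, and 251 for nidogens and perlecan. The order within each laminin group, and Itgb1 ahead of Itgb5, was the same under all 4 lengths. With the mean length, however, Lamb2 (117 CPM per kb) lay much nearer to Lamb1 (144). Itga9 led the alpha subunits with the mean length, and Itga3 passed Itga6 with merged exons. With the longest coding sequence, Itga1 (46.1) passed Itga6 (43.9). The lower beta subunits also changed order there, to Itgb3 (17.2), Itgb6 (17.0) and Itgb4 (16.7), which lay close together. Hspg2 lay below Lamb1, Lamc1 and Lamb2 with the mean length and below Lamc1 with the coding sequence, and above Itgb1 with merged exons. Depth limits Itgad, Itgax and Itgae.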

Other observations

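The 40 genes lie on 16 chromosomes, with 7 on chromosome 2 and 5 on chromosome 11, and some stand side by side in GRCm38. On chromosome 13, the collagen receptor genes Itga2 and Itga1 are 21 kb apart on the minus strand, with 0 coding genes between, at 5.74 and 14.9 CPM per kb. On chromosome 7, Itgax and Itgad are 3.7 kb apart, Itgam lies 11.1 kb before Itgax, and Itgal is on the same chromosome. These 4 leukocyte genes were all at or below 1.13 CPM per kb.

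The tenascin and nephronectin genes, Tnc and Npnt, encode ligands of the Itga9 and Itga8 products, and with Col7a1 they were chosen after their values were seen. Tnc had 104 and 113 CPM in libraries 2 and 3. Npnt had 90.2 and 68.5 CPM, a ratio of 0.760 (counting interval 0.709 to 0.814), while Itga8 had a ratio of 1.02 (0.923 to 1.13). Col7a1, the collagen of anchoring fibrils under squamous epithelium, had 31.0 and 22.0 CPM, a ratio of 0.710 (0.630 to 0.802). These ratios compare 2 single libraries and have no replicate check.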
